A study of Mus musculus with 87 samples.

Results

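Hand1, Esx1, Cdx2, Elf5, Gata2, Gata3, Tfap2c, Gcm1 and Plac1 are genes of the mouse trophoblast, the outer lineage of the embryo that builds the placenta. These 9 genes, out of 26171 gene symbols, were picked by name because Hand1 and Esx1 stood out for their rise in 2 comparisons of embryonic stem cells (ESC), KO vs WT and KO-L3D vs WT. The values of the 9 genes in those 2 comparisons are therefore given as a description. The authors' calls in them are counted but support nothing. The other 11 comparisons were read for the same genes.

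The study altered Suz12, a core subunit of the Polycomb repressive complex PRC2, in the mouse ESC line 129-B13. PRC2 methylates lysine 27 of histone H3, and the mark (H3K27me3) accompanies silence of developmental genes. ESC were kept in 20% serum with LIF. Neuronal precursors (NP) were made from them through embryoid bodies, with retinoic acid from day 4 and harvest at day 8. Polyadenylated RNA was sequenced from wild type (WT, 3 ESC and 4 NP samples), from cells with constitutive Suz12 exon 4 (CSex4, 2 and 2), from cells with exon 4 deleted (Deltaex4, 2 and 2) and from the full Suz12 knock-out (KO, 3 and 2). The knock-out rescued with the long isoform (KO-L) or the short isoform (KO-S) gave 2 ESC and 2 NP samples each. Lines labelled as rescues of the knock-out with either isoform carrying the 3D mutation, placed in the Rosa26 locus, were sequenced in ESC only (KO-L3D and KO-S3D, 2 samples each). The sources used here do not give the number of clones behind a line, nor whether the samples of a group were separate cultures. The p-values below therefore measure the spread between these samples, which may be technical.

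In the mouse blastocyst the trophectoderm separates from the inner cell mass, the source of ESC, and its polar part keeps trophoblast stem cells. Cdx2, Elf5, Gata3, Tfap2c and Eomes are transcription factors of that stem cell state. Hand1 drives the formation of trophoblast giant cells, Gata2 acts with Gata3 in giant cells, Gcm1 directs syncytiotrophoblast of the labyrinth, Esx1 is an X-linked homeobox gene of the labyrinth and Plac1 is an X-linked gene of a membrane-associated placental protein. ESC seldom enter this lineage. Several of the 9 genes also act elsewhere: Hand1 in heart and extraembryonic mesoderm, Cdx2 in the posterior axis, Gata2 in neurons and blood, Gata3 in surface ectoderm, and Tfap2c in germ cells.

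The deposited expression tables hold statistics of comparisons. Whole reads per library were worked out from the means and fold changes in them, and are given here as scaled reads, that is, reads divided by the size factor of the library. Because the tables were normalized separately, the libraries of a cell type were brought to a common scale through the libraries that several tables share. Library totals lay between 23549800 and 47201666 reads over 32 libraries. Suz12, the targeted gene, had 4443, 5797 and 8652 scaled reads in ESC WT and 1638, 2529 and 1227 in ESC KO, and 3350 to 6179 in NP WT against 1287 and 1343 in NP KO, so all KO libraries were below all WT libraries. Among the ESC lines labelled as rescues, KO-L had 3206 and 3621 scaled reads of Suz12, KO-S 3982 and 3954, and KO-S3D 4734 and 9691, all above KO. The libraries labelled KO-L3D had 1560 and 2483, inside the KO range, so their Suz12 RNA was at the knock-out level. ESC CSex4 had 7283 and 7056 and Deltaex4 2171 and 3894. The tissue labels were checked with marker genes. In ESC, Pou5f1 lay between 17833 and 36266 scaled reads in all 18 libraries, and Hes5, a neural progenitor gene, did not exceed 6.3. In NP WT, Hes5 lay between 610 and 2308 and Tubb3 between 3082 and 14677 scaled reads.

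Some pairs of libraries were uneven in the 9 genes, and their values are given with each result they touch. In ESC KO-S3D one library exceeded its partner in 9 of 9 genes, with a median ratio of 16.4. In ESC KO-L3D the same count was 9 of 9 with a median ratio of 3.34, and in NP Deltaex4 it was 9 of 9 with a median ratio of 6.60. The share of all genes uneven in this way was not counted. In NP CSex4, by contrast, the partners differed by a median ratio of 0.991. Over 16219 genes, the variance between these partners was 2.42 times that of sampling. It was 10.8 to 140 times for the other pairs of NP libraries within a group. For pairs of ESC libraries it ran from 12.4 times in KO-S to 107 in WT, with 84.7 in KO-S3D and 84.8 in CSex4. The near equality of the NP CSex4 libraries is therefore not read as replication. Of the 3 ESC WT libraries, one had 999 scaled reads of the primitive endoderm gene Gata4 where the others had 54.4 and 60.5. All 7 ESC tables share the WT libraries, and outside the KO table the deposited fold changes rest on 2 of them, since the third carried a weight of -0.007 to 0.003.

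The 9 genes were first placed against the deposited ChIP-seq region lists, which were not made from expression values. A gene was counted where either end lay within 2500 bp of a region. Hand1, Esx1, Cdx2, Gata2, Gata3 and Tfap2c, 6 of the 9, lay at both a Suz12 region and an H3K27me3 region, against 10.7% and 20.6% of 21887 genes. Elf5, Gcm1 and Plac1 lay at neither. Hand1 and Esx1, whose rise in the Suz12 knock-out ESC led to the choice of genes, are among the 6. The count is therefore not independent of that choice. The headers of the lists do not name a genome build, and the gene positions are RefSeq's on GRCm38.p6, the assembly that mm10 of the submitters' processing notes stands for.

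The regions at the 6 genes differed in width. Gata3 overlapped an H3K27me3 region of 31478 bp (chr2:9868745-9900222), whose deposited value of 2.38e-190 ranked 10 of 6882. Hand1 lay wholly inside an 8507 bp Suz12 region (chr11:57826473-57834979) and a 13016 bp H3K27me3 region (chr11:57825634-57838649). Cdx2 was covered by a Suz12 region of 10553 bp (chr5:147299229-147309781) and an H3K27me3 region of 19861 bp. Gata2 overlapped regions of 13459 bp and 13205 bp, which cover its starts and not its 3′ end. Esx1 (chrX:137117639-137122664) and Tfap2c (chr2:172545194-172552288) had Suz12 regions of 5026 and 7095 bp. The H3K27me3 regions overlapping Esx1 were narrower, 4544 and 3212 bp. The nearest region of either mark lay 115112 bp from Elf5 and 40808 bp from Gcm1, and 8818 bp from Plac1, so Plac1 joined the count for H3K27me3 when the distance was widened to 10000 bp. The deposited value of a region is the authors', and the lists do not give its kind or the direction of change.

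The promoter set used here (RefSeq, GRCm38.p6) covers 7 of the 9 genes and has no entry for Hand1 and Tfap2c. The 250 bases upstream of the start in that set are shown 5′ to 3′ for 3 genes at the regions and for the 3 genes away from them. For Esx1 and Gata3 that start lies inside the annotated gene span, downstream of its outermost end. The windows are shown because the genes differ in the dinucleotide CG, which is set in capitals. Esx1 (chrX:137120327-137120576, minus strand), Cdx2 (chr5:147307250-147307499, minus) and Gata3 (chr2:9878601-9878850, minus) start inside a Suz12 and an H3K27me3 region. Elf5 (chr2:103411848-103412097, plus), Gcm1 (chr9:78051708-78051957, plus) and Plac1 (chrX:53240111-53240360, minus) do not.
Esx1: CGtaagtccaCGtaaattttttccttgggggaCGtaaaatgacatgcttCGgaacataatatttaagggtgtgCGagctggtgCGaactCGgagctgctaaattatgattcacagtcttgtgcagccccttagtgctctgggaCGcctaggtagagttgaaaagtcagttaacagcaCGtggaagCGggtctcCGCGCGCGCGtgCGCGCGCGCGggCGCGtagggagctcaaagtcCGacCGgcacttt
Cdx2: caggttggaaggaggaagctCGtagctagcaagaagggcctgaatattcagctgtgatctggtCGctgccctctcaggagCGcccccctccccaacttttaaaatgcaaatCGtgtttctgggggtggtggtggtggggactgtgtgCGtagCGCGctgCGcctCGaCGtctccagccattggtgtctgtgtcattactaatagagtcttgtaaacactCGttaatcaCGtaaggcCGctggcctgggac
Gata3: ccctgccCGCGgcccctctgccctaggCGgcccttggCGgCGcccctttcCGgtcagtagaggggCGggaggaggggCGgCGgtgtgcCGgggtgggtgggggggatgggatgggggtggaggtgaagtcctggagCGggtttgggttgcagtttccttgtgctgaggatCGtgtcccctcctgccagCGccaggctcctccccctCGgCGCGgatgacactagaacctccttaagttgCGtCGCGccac
Elf5: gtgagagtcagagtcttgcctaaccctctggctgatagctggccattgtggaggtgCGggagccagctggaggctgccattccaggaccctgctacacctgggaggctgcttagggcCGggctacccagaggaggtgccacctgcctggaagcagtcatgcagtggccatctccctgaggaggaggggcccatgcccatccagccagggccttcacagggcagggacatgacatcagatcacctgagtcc
Gcm1: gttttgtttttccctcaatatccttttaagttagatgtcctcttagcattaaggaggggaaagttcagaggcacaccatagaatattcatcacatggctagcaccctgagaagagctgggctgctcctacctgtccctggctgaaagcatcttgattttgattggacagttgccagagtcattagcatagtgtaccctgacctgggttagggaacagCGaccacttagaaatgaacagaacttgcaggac
Plac1: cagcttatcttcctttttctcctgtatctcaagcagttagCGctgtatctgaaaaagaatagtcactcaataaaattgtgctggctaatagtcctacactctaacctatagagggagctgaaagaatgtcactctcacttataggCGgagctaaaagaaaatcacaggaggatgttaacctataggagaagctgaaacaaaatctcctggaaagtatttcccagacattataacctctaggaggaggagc

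Counted without overlap, CG occurred 24 times in Esx1, 13 times in Cdx2 and 19 times in Gata3. It occurred 2 times in Elf5, 1 time in Gcm1 and 2 times in Plac1. Gata2 has entries for 2 starts, with 22 and 24 CG, both inside regions of either mark. The other starts of Elf5 and Plac1 held 8 and 4. The median of 32851 promoters was 6, and 12% of them held at least the 24 of Esx1, 31.5% at least the 13 of Cdx2, 81.2% at least the 2 of Elf5 and Plac1, and 92.1% at least the 1 of Gcm1. The letters read the same on both strands, and the counts describe these windows only.

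The expression of the 9 genes was then compared across the tables. A call is an adjusted p under 0.05. ESC KO vs WT had 5 of 9 genes called higher (11% of the genes tested) and KO-L3D vs WT 6 of 9 (8.22%); these comparisons chose the genes, and nothing is read from the counts. The authors gave an adjusted p to 7 of the 9 in KO-L, KO-S and CSex4, to 8 in KO-L3D and KO-S3D and to 9 in the other tables. In ESC KO-L vs WT 3 of the 9 were called higher (Hand1, Esx1 and Gata3; 1.46% of genes tested), in CSex4 vs WT 2 (Cdx2 and Gata3; 1.72%), and in KO-S3D vs WT 1 (Esx1; 2.05%). KO-S vs WT had 1 gene higher (Hand1; 4.28%) and 1 lower (Tfap2c; 3.63%). Deltaex4 vs WT called none of the 9 (0% of all genes) by the authors' test, and none of the 9 reached an unadjusted p under 0.05; limma without a replicate block called none either (0%). These ESC tables share WT libraries with the 2 that chose the genes, so their calls are not independent of the choice.

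The NP tables share no library with ESC. CSex4 vs WT called 4 of 9 higher (Hand1, Gata2, Tfap2c and Plac1; 4.08% of genes tested) and KO vs WT called 5 of 9 higher (Cdx2, Elf5, Gata2, Gata3 and Plac1; 11.6%). WT vs KO, with another pair of WT libraries, called 8 of 9 lower in WT (17.3%), and Gcm1 was the exception. KO-S vs KO called the same 8 lower (18%). These 2 tables, KO vs WT and KO-L vs KO contain the same pair of KO libraries, so their calls are not independent of each other. KO-L vs KO called 4 lower (Elf5, Gata2, Gata3 and Plac1; 13.8%) and 2 higher (Tfap2c and Gcm1; 10.9%). Deltaex4 vs WT called none of the 9 (0.0289%), with none at an unadjusted p under 0.05 and none by limma (0% of genes tested). In bulk RNA, fewer cells of a type and less RNA per cell cannot be told apart, here and in all results below. The median log2 fold change of the 9 genes in the authors' deposited tables ran from 0.55 in KO-S to 2.26 in KO-L among the ESC comparisons that did not choose them, while that of all genes tested ran from -0.04 to 0.02. These ESC medians use the WT libraries of the choosing tables and are not independent of the choice. ESC Deltaex4, with none called, had 1.30. In NP the median against WT was 1.26 in CSex4, 0.26 in Deltaex4 and 2.15 in KO.

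**Figure D1:**
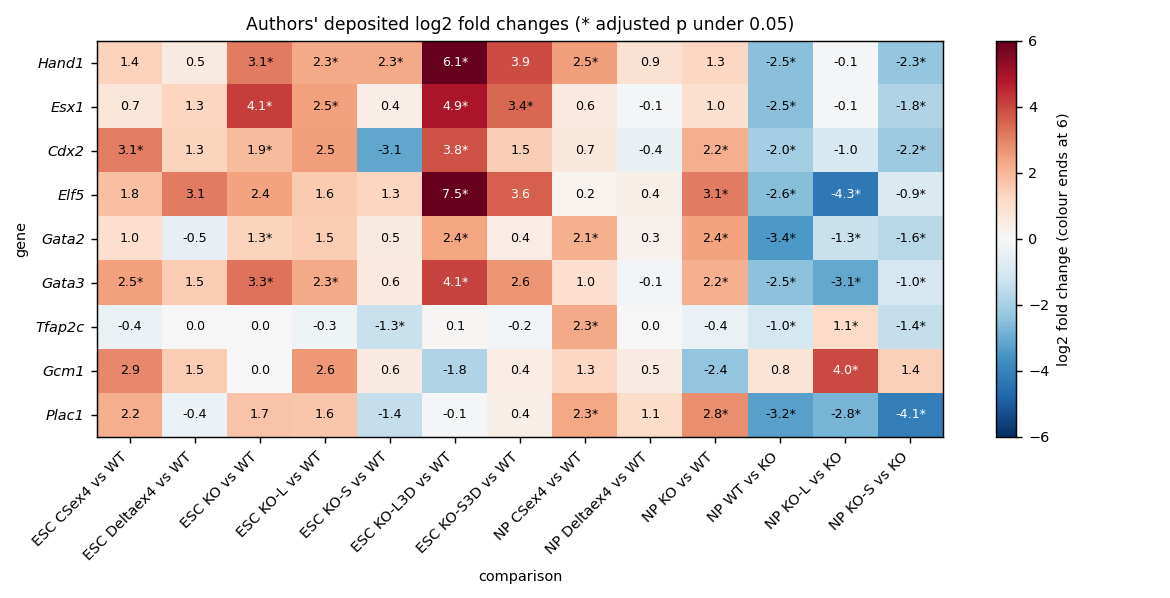
Authors' deposited log2 fold change of the 9 genes (rows) in the 13 comparisons (columns), with stars at an adjusted p under 0.05 and a colour scale that ends at 6 in either direction. Stars fill 8 of 9 rows in NP WT vs KO and NP KO-S vs KO and none in the Deltaex4 columns; ESC KO vs WT and KO-L3D vs WT chose the genes.

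Hand1, the giant cell factor, had 49.7, 67.4 and 23.0 scaled reads in ESC WT. It had 530, 654 and 144 in KO and 5286 and 1271 in KO-L3D, the comparisons that chose it. The rescues with an unmutated isoform stayed above WT without overlap: KO-L had 349 and 102 scaled reads and KO-S 175 and 217. Its log2 fold change in the authors' deposited tables was 2.27 ± 0.58 (SE; adjusted p 0.00905) for KO-L, and 2.28 ± 0.60 (adjusted p 0.00412) for KO-S. The difference of KO-S minus KO-L was 0.01 ± 0.84, with a 95% interval of -1.63 to 1.65, too wide to tell the isoforms apart. In KO-S3D the libraries had 5147 and 66.6 scaled reads, one as high as KO-L3D and one at the level of WT, and the fold of 3.89 ± 2.20 in the authors' deposited table did not pass (adjusted p 0.428). Both CSex4 (164 and 65.9) and Deltaex4 (88.5 and 36.1) overlapped WT.

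In NP, Hand1 had 182 and 152 scaled reads in the WT pair compared with CSex4, Deltaex4 and KO, and 61.0 and 82.9 in the other WT pair. CSex4 had 941 and 950, above all 4 WT libraries, with a log2 fold change of 2.50 ± 0.38 (adjusted p 8.84e-09) in the authors' deposited table. KO had 740 and 213, KO-L 368 and 396, and KO-S 96.8 and 66.2 scaled reads. KO lay above all 4 WT libraries, yet 1.26 ± 0.56 in the authors' deposited table did not pass (adjusted p 0.0943), while the table with the other WT pair gave -2.49 ± 0.54 for WT vs KO (adjusted p 3.24e-05). KO-S thus overlapped WT and lay below KO, and KO-L lay between the KO libraries. Against KO the authors' deposited tables put Hand1 at -0.07 ± 0.41 (adjusted p 0.943) in KO-L and -2.33 ± 0.40 (adjusted p 1.03e-07) in KO-S. The difference between the rescues was -2.26 ± 0.58 (Wald test on the deposited values, adjusted p 0.00205); in the limma fit on recovered reads it was -2.24 with an adjusted p of 0.161. Deltaex4 had 938 and 105, one library at the CSex4 level and one within the WT range.

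Gata2, which shares targets with Gata3, had 112, 75.2 and 82.1 scaled reads in ESC WT. It had 287, 247 and 154 in KO and 692 and 233 in KO-L3D. KO-L (220 and 237) also lay above WT, with 1.54 ± 0.52 (adjusted p 0.102) in the authors' deposited table, which did not pass. KO-S had 122 and 108 and CSex4 221 and 115, and KO-S3D had 503 and 19.9, above and below every WT library. In NP, WT had 513 and 514 in one pair and 229 and 282 in the other. KO had 4006 and 1878, CSex4 2191 and 2312, KO-L 1075 and 1087, and KO-S 1000 and 768, all above the 4 WT libraries. The authors' deposited tables put Gata2 at 2.42 ± 0.39 (adjusted p 1.95e-08) in KO vs WT and at 2.13 ± 0.33 (adjusted p 1.75e-08) in CSex4 vs WT. Both rescues were below KO, by -1.35 ± 0.27 in KO-L and -1.65 ± 0.22 in KO-S in the authors' deposited tables, and the rescues differed from each other by -0.30 ± 0.34 (95% interval -0.98 to 0.37).

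Cdx2, the factor that sets the trophectoderm apart from the inner cell mass, was low in ESC WT with 31.0, 23.4 and 7.7 scaled reads. It reached 116, 73.4 and 37.6 in KO and 408 and 79.1 in KO-L3D. In CSex4 it had 143 and 96.8, above all WT libraries, with 3.07 ± 0.82 (adjusted p 0.0148) in the authors' deposited table. KO-L had 109 and 53.7 scaled reads, above all WT libraries, and KO-S 2.1 and 1.1, below all of them. The rescues differed by -5.61 ± 1.85 for KO-S minus KO-L (95% interval -9.23 to -1.98, adjusted p 0.0570), which did not pass the threshold over all genes. In NP, WT libraries had 178 and 80.2, and 178 and 96.9 scaled reads. KO (370 and 773), KO-L (358 and 207) and CSex4 (204 and 181) lay above them, CSex4 by little. The authors' deposited table gave Cdx2 2.16 ± 0.45 (adjusted p 3.38e-05) in KO vs WT and -2.17 ± 0.37 (adjusted p 5.06e-08) in KO-S vs KO, where KO-S had 123 and 114.

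Elf5, which holds the trophoblast stem cell state in a loop with Cdx2 and Eomes, was at 5.6, 3.9 and 0 scaled reads in ESC WT. It was at 480 and 144 in KO-L3D, against 19.2, 16.6 and 7.1 in KO. Of the other ESC groups, only the high KO-S3D library, with 114 scaled reads (its partner had 2.3), exceeded 11, and for lack of an adjusted p in 3 of the tables its ESC folds are left out. NP WT libraries had between 42.7 and 130. Elf5 had 821 and 529 in NP KO, and 30.6 and 37.4 in KO-L, below every WT library, while KO-S kept 279 and 475. The authors' deposited tables put it at 3.12 ± 0.56 (adjusted p 5.87e-07) in KO vs WT, at -4.29 ± 0.40 (adjusted p 9.88e-25) in KO-L vs KO and at -0.85 ± 0.34 (adjusted p 0.0368) in KO-S vs KO. The rescues thus differed by 3.43 ± 0.53 for KO-S minus KO-L (Wald test, adjusted p 6.90e-09), and Elf5 was the 1 gene of the 9 whose difference also passed in limma (3.41, adjusted p 0.0267). CSex4 had 90.0 and 85.2, within the WT range.

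Gata3, a trophectoderm factor that also marks surface ectoderm, had 76.9, 36.1 and 16.4 scaled reads in ESC WT. It had 377, 357 and 349 in KO, the narrowest spread of the 9 genes there, and 631 and 260 in KO-L3D. KO-L had 210 and 63.1, overlapping WT, with 2.26 ± 0.69 (adjusted p 0.0475) in the authors' deposited table. CSex4 had 212 and 90.4, above WT, with 2.48 ± 0.74 (adjusted p 0.0359) in the authors' deposited table. KO-S (34.0 and 38.9) lay within the WT range, and the high and low KO-S3D libraries had 508 and 45.5. In NP, Gata3 followed Elf5 in the rescues: KO had 2209 and 1246 scaled reads, KO-L 189 and 206, KO-S 773 and 864, and WT 185 to 744. KO-S exceeded KO-L by 2.05 ± 0.38 on the log2 scale (Wald test, adjusted p 5.36e-06; limma 2.05, adjusted p 0.0739).

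Tfap2c, unlike the other genes, was abundant in WT ESC, at 2729, 1932 and 1941 scaled reads. KO (2509, 1643 and 2703), KO-L3D (2523 and 1601) and Deltaex4 (2026 and 1801) overlapped these values. KO-L (1431 and 1826) and CSex4 (1438 and 1496) lay below all WT libraries. Their folds of -0.26 ± 0.29 and -0.40 ± 0.32 in the authors' deposited tables were not called. KO-S had 975 and 593, below every other ESC library, with -1.35 ± 0.30 in the authors' deposited table (adjusted p 3.83e-04) and an adjusted p of 0.00945 in limma (lost when 1 of the KO-S libraries was left out). In NP the order changed. CSex4 had 5581 and 5568 scaled reads, KO-L 2338 and 1616, the WT pairs 1573 and 869, and 382 and 479, KO 1314 and 584, and KO-S 404 and 263. CSex4 exceeded every WT library, with 2.25 ± 0.34 (adjusted p 8.28e-09) in the authors' deposited table, the only call of the 9 in that comparison that limma kept with the same WT pair (adjusted p 0.0479). CSex4 also differed from Deltaex4 by 2.23 ± 0.57 (Wald test, adjusted p 0.01002; 1.28% of genes tested were higher; limma adjusted p 0.0295, 11.4%), and KO-S from KO-L by -2.58 ± 0.36 (adjusted p 2.24e-10; limma adjusted p 0.0546). Deltaex4 again had one high and one low library, 2873 and 484.

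Esx1, the labyrinth homeobox gene, had 72.2, 41.0 and 41.6 scaled reads in ESC WT. KO had 1108, 822 and 755 and KO-L3D 2124 and 707, the values behind the choice of genes. KO-L had 337 and 156, above WT and below KO, with 2.48 ± 0.59 (adjusted p 0.00288) in the authors' deposited table. KO-S, at 59.8 and 48.6, lay within the WT range. The difference of KO-S minus KO-L was -2.09 ± 0.94 (95% interval -3.95 to -0.24, adjusted p 0.264) and did not pass. KO-S3D had 1572 and 123, both above WT, which made Esx1 the only one of the 9 called there (3.43 ± 0.69, adjusted p 1.37e-04 in the authors' deposited table; limma adjusted p 0.0482). In NP, Esx1 was at 910 and 602 in KO, 775 and 640 in KO-L, 561 and 606 in CSex4, 232 and 194 in KO-S, and 590, 247, 103 and 163 in WT. KO-L overlapped KO, at -0.07 ± 0.27 in the authors' deposited table (adjusted p 0.899), and KO-S lay below KO, at -1.80 ± 0.29 there (adjusted p 4.26e-09; limma 0.0676).

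Gcm1, the syncytiotrophoblast factor, was the only one of the 9 not called lower in NP WT vs KO and in NP KO-S vs KO. Like Tfap2c, it was called higher in NP KO-L vs KO. In ESC it was low throughout, between 1.0 and 94.3 scaled reads, and its highest libraries were those of CSex4 (94.3 and 53.2) and KO-L (57.5 and 56.8), against 19.7, 22.5 and 3.3 in WT. KO had 11.3, 19.6 and 10.2 and KO-L3D 6.3 and 1.0, so Gcm1 was not among the genes that were high there. In NP it had 9.8 and 7.3 in KO, and its highest libraries were those of KO-L (148 and 119), CSex4 (107 and 107) and the high Deltaex4 library (164, its partner 22.6). WT had 49.9 and 39.6 in one pair and 5.6 and 39.9 in the other, so KO overlapped WT. KO-L exceeded KO by 3.97 ± 0.74 in the authors' deposited table (adjusted p 1.27e-06; limma 0.0267).

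Plac1 had 7.5, 9.8 and 3.3 scaled reads in ESC WT, and among the ESC libraries the high KO-S3D library stood alone with 267, where its partner had 0. KO had 29.6, 39.1 and 7.1, CSex4 32.8 and 21.3, and all remaining ESC libraries at most 32.4. NP WT libraries had between 119 and 176. Plac1 was at 1289 and 1021 in KO and at 817 and 836 in CSex4, each above all WT libraries, and the authors' deposited tables gave 2.79 ± 0.40 (adjusted p 1.02e-10) and 2.32 ± 0.38 (adjusted p 2.51e-07). KO-L had 156.2 and 176.4, against a highest WT library of 176.1, and KO-S 61.6 and 69.6, below all WT libraries. KO-S fell below KO by -4.13 ± 0.29 (adjusted p 1.05e-42) in the authors' deposited table, the largest fall among the 9 in that comparison.

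**Figure D2:**
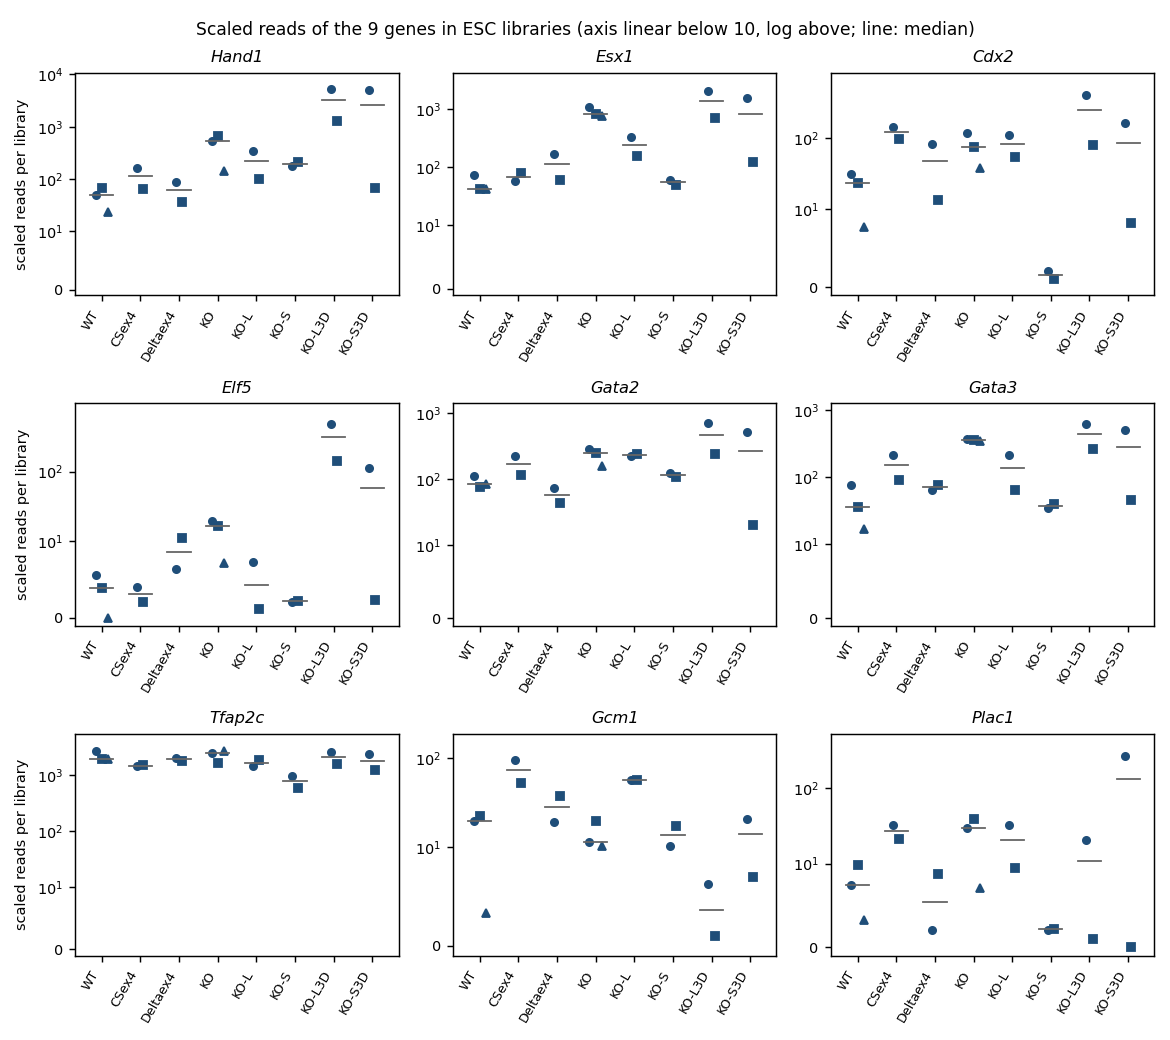
Scaled reads of the 9 genes in each ESC library, by group; circles, squares and triangles are libraries of a group (names without order), lines are medians, and the axis is linear below 10 and logarithmic above. The KO-S3D circle lies above its square in 9 of 9 panels, by a median ratio of 16.4, and Tfap2c is lowest in KO-S (975 and 593).

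**Figure D3:**
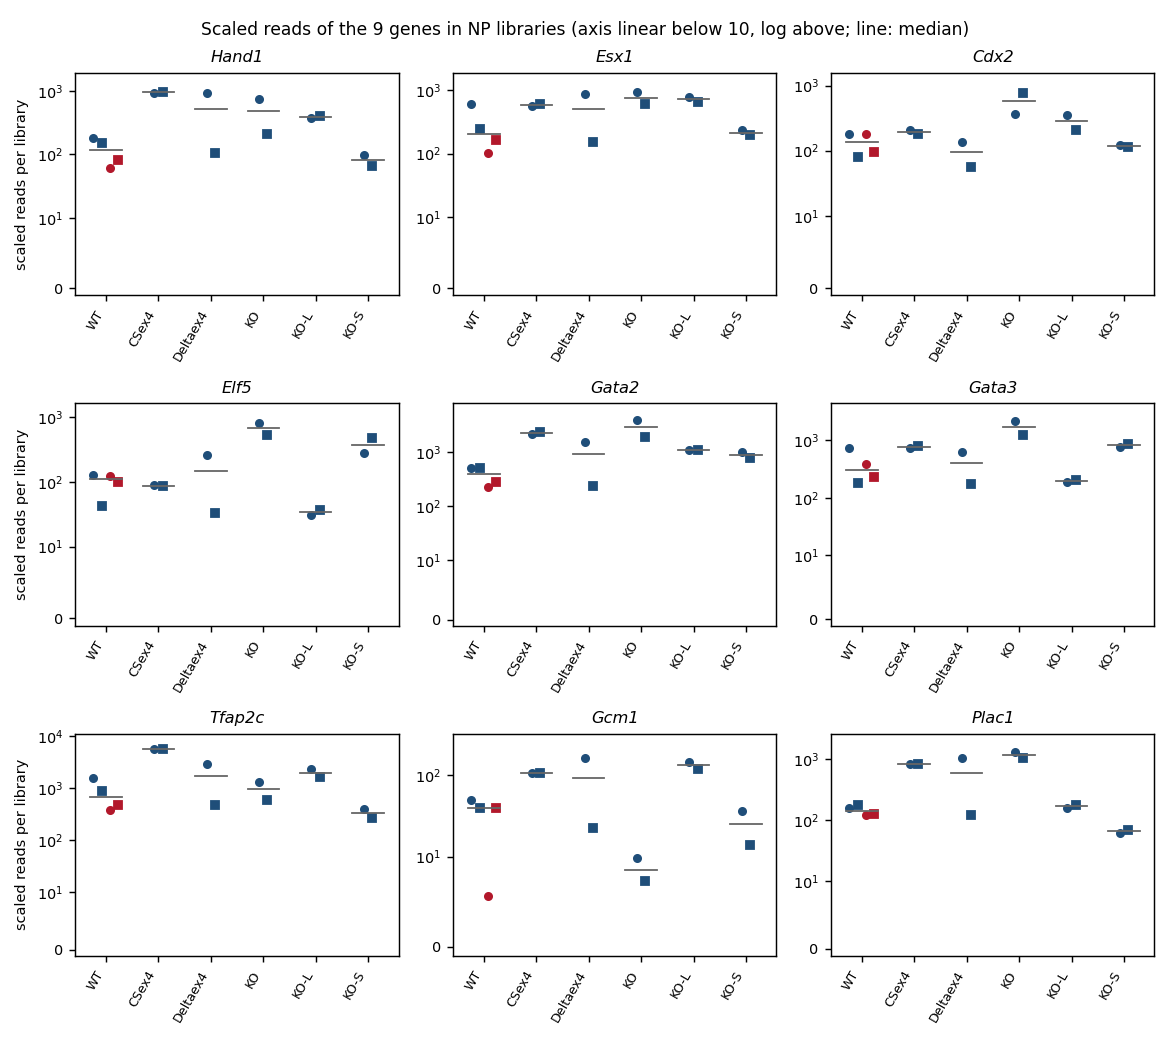
Scaled reads of the 9 genes in each NP library, drawn in the same way, with the WT pair of the WT vs KO table in red. KO lies above all 4 WT libraries in the panels of Hand1, Esx1, Cdx2, Elf5, Gata2, Gata3 and Plac1. The gap is small for Esx1 (602 against 590 scaled reads). For Gcm1, KO lies below 3 of the WT libraries. The share of all genes separated in this way was not counted. The CSex4 libraries nearly coincide.

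The isoform rescues were compared with each other for all 9 genes. In NP, 6 of 9 differed between KO-S and KO-L by the Wald test (5.71% of genes tested were higher in KO-S and 4.56% lower). Elf5 and Gata3 were higher in KO-S, and Hand1, Esx1, Tfap2c and Plac1 were lower. Plac1 differed by -1.34 ± 0.41 (adjusted p 0.0159). Both tables contain the same KO libraries, and this sharing alone would make the standard error of the difference too large. Yet limma, with both rescues in 1 fit, gave larger standard errors for all 6 (Hand1 1.08 against 0.58). It kept 1 of the 6, Elf5 (10.7% of genes higher). Dividing the Wald statistic by its robust SD gave 4 genes. The Wald calls are therefore not taken as cautious. In ESC, none of the 7 genes tested differed between KO-S and KO-L (1.35% of genes higher) by the Wald test, while limma called Tfap2c lower in KO-S (-1.08, adjusted p 0.0419; 11.7% of genes lower). None of the 7 differed between KO-S3D and KO-S (0.504% of genes higher) or between CSex4 and Deltaex4 (0.0696%) in ESC by the Wald test. For these pairs limma called Tfap2c 1.17 higher in KO-S3D than in KO-S (adjusted p 0.0441; 6.42% of genes higher) and none in CSex4 against Deltaex4 (5.62%).

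Several of these calls changed with the test or with single libraries. Without a replicate block, limma kept 0 of the 2 genes called in ESC CSex4 (0.0985% of genes higher), 0 of 3 in KO-L (0.00657%), and of the calls in KO-S only Tfap2c (7.17% lower). In NP it kept 5 of 5 in KO vs WT (22.4%), 6 of 8 in WT vs KO (25.5% lower), and 2 of 8 (Cdx2 and Plac1) in KO-S vs KO (16.4% lower). In KO-L vs KO it kept 4 of 6, Gcm1 higher (12%) and Elf5, Gata3 and Plac1 lower (14.5%). Of the 4 genes called in NP CSex4, it kept Tfap2c with the WT pair of that table (5.26%) and all 4 when the 4 WT libraries formed 1 group (14.1%). Where 1 of 2 libraries of a group was left out, the remaining one was assumed to vary like the other groups. In ESC KO-S3D limma called 1 of 9 (12.1%). It called 0 without the high library (6.31%), 7 without the low one (12.4%) and 0 without any one of the WT libraries. With each library left out in turn, limma kept Elf5 and Plac1 in NP KO vs WT in 4 of 4 fits, Tfap2c in NP CSex4 in 1 of 4 and Tfap2c in ESC KO-S in 4 of 5. In NP Deltaex4, 1 of 9 was called without the low library (0.172%) and 0 without the high one (0.0491%).

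Other genes of the trophoblast were read from 5 lists, and those called in each comparison were counted as for the 9 genes. These counts are to be read against the shares of all genes called in each table. In NP, 4.08% were called higher in CSex4 vs WT and 11.6% in KO vs WT. In KO-L and KO-S vs KO, 13.8% and 18% were called lower. The shares called lower in CSex4 vs WT and KO vs WT are not given here, so lower counts there have no background. In NP CSex4 the spongiotrophoblast, giant cell and hormone genes stood out: 7 of 9 were higher and none lower, with a median log2 fold change of 3.48 against -0.04 over all genes tested. Tpbpa, a spongiotrophoblast marker, had 1959 and 1959 scaled reads in CSex4 and 82.5, 365, 271 and 240 in WT. The placental hormone gene Prl3b1 had 450 and 456 against 10.6, 66.7, 34.4 and 73.2, and the labyrinth giant cell protease Ctsq 450 and 445 against 20.2, 39.6, 35.8 and 28.0. The near equality of the CSex4 libraries in these genes is not read as replication either. All 3 placental Rhox genes of the X chromosome were higher, Rhox9 by 2.26 ± 0.32 (adjusted p 8.28e-10 in the authors' deposited table). So were 3 of 10 stem cell factors, though the median log2 fold change of that list was 0.09. Among them were Eomes at 2.05 ± 0.50 (adjusted p 0.00165) and Esrrb at 2.44 ± 0.36 (adjusted p 5.75e-09) in the authors' deposited table. Esrrb was also abundant in ESC, with a mean of 12981 scaled reads in CSex4 vs WT, so it does not mark trophoblast alone here. Of 10 labyrinth and syncytiotrophoblast genes none was higher and 1 lower, and of 4 simple epithelial keratins 2 were higher.

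The NP knock-out had a different set. None of the 9 spongiotrophoblast, giant cell and hormone genes was higher in KO vs WT and 2 were lower: Tpbpa had 21.7 and 1.2 scaled reads and Prl3b1 1.1 and 0 in KO. The simple epithelial keratins, shared by trophoblast and other epithelia, were higher in 4 of 4, and Krt19 had the largest rise (2.86 ± 0.37, adjusted p 5.00e-13, in the authors' deposited table). Labyrinth and syncytiotrophoblast genes were higher in 3 of 10 and lower in 1. Syna, a syncytin of the labyrinth, had 1321 and 259 scaled reads in KO and 35.5 to 74.0 in WT. Of the stem cell factors 3 of 10 were higher, and Klf5 rose most (2.59 ± 0.46, adjusted p 4.44e-07, in the authors' deposited table). Placental Rhox genes were higher in 2 of 3. The table with the other WT pair gave more: in KO, stem cell factors were higher in 6 of 10 and lower in 1, labyrinth genes higher in 5 of 10 and lower in 1, Rhox genes higher in 3 of 3 and keratins in 4 of 4 (17.3% of all genes). Of the spongiotrophoblast, giant cell and hormone genes, that table had Ascl2 higher in KO and 3 of 9 lower (Tpbpa, Prl3b1 and Ctsq).

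In KO-S the hormone genes were at or near 0: Prl3b1, Ctsq, Prl2c2 and Prl3d1 had 0 scaled reads in both libraries, and Tpbpa had 3.3 and 3.4. KO-L had 123 and 830 for Tpbpa and 6.8 and 104 for Prl3b1, one library high and one low in both. Placental Rhox genes were lower than KO in 3 of 3 in KO-S and 1 of 3 in KO-L. Keratins were lower than KO in 3 of 4 and 4 of 4, and stem cell factors in 5 of 10 and 6 of 10 (KO-S first), with 2 of 10 higher in KO-L. Eomes was higher in KO-L than in KO (1.33 ± 0.33, adjusted p 5.98e-04, in the authors' deposited table).

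**Figure D4:**
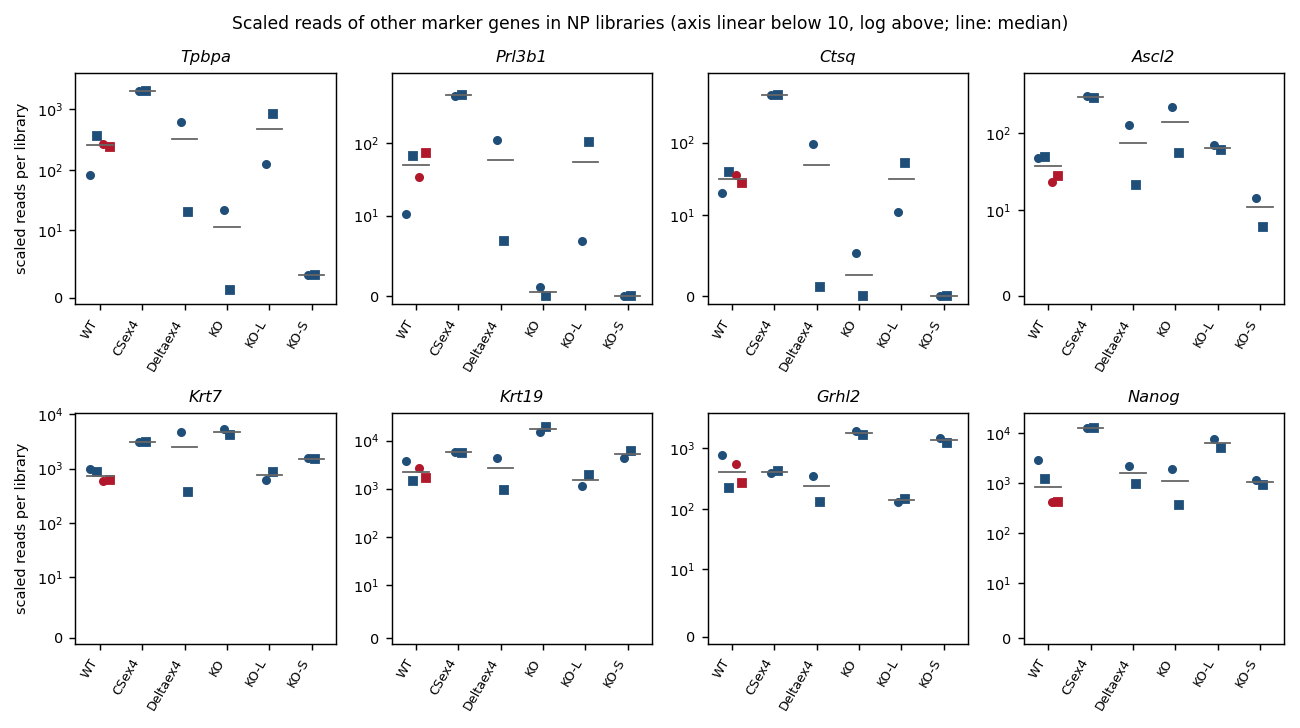
Scaled reads of 8 marker genes in each NP library, by group, on the same axis and with the same symbols as the NP plot of the 9 genes. Tpbpa, Prl3b1, Ctsq and Nanog are highest in CSex4 and Krt19 and Grhl2 in KO; in KO-S, Prl3b1 and Ctsq are at 0.

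Markers of other cell types moved in the same NP comparisons, and their part in the values of the 9 genes was not tested. In CSex4 the germline markers were higher in 4 of 4 and pluripotency markers in 3 of 4, and neural precursor markers were lower in 3 of 7. Surface ectoderm markers were higher in CSex4 in 1 of 4 (Grhl3). Of the 2 posterior Cdx paralogs, Cdx1 was called higher in CSex4 vs WT, by 1.39 ± 0.37 in the authors' deposited table. Against KO, Cdx1 was called higher in KO-L (3.90 ± 0.91) and in KO-S (2.45 ± 0.44) in the authors' deposited tables. Neither paralog was called in KO vs WT. Nanog had 12765 and 13077 scaled reads in CSex4 and 416 to 2858 in WT. The WT pair of that table was itself uneven, with 2858 and 1220 for Nanog and 609 and 3119 for Fabp7, a radial glia gene. In KO vs WT the neural precursor markers were lower in 6 of 7, and Hes5 had 2.2 and 1.2 scaled reads. Surface ectoderm markers were higher there in 3 of 4, with Grhl2 at 1916 and 1614 scaled reads against 218 to 779 in WT. Cardiac and mesoderm markers were higher in 2 of 6 (Tbx20 and Nkx2-5), primitive endoderm markers in 2 of 6 (Gata4 and Gata6), and V2 interneuron and blood markers in 2 of 6 (Tal1 and Runx1) with 1 lower (Foxn4). In KO-L vs KO the surface ectoderm markers were lower in 4 of 4, and in KO-S vs KO in 1 of 4; Grhl2 was at 131 and 147 scaled reads in KO-L and at 1474 and 1227 in KO-S, the same order as Elf5 and Gata3. The primitive endoderm markers were lower than KO in 5 of 6 in KO-L and in 6 of 6 in KO-S. Neural precursor markers were higher than KO in 7 of 7 in KO-S, and in KO-L higher in 5 of 7 and lower in 1. Germline markers were higher in 2 of 4 in KO-L and lower in 2 of 4 in KO-S. Pluripotency markers were higher in 2 of 4 and lower in 1 in KO-L, and lower in 2 of 4 in KO-S. The share of all genes called higher was 10.9% in KO-L and is not given for KO-S.

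In ESC, the placental lists were read outside the comparisons that chose the genes. Flt1, expressed in giant cells and spongiotrophoblast and in endothelium, was the only one of 9 spongiotrophoblast, giant cell and hormone genes called in CSex4 (2.66 ± 0.43, adjusted p 5.63e-06) and in KO-L (2.11 ± 0.40, adjusted p 3.97e-05) in the authors' deposited tables. Keratins were called higher in 2 of 4 in CSex4 and 3 of 4 in KO-L. Krt8 had 31937 and 10662 scaled reads in CSex4, 7471 and 11910 in KO-L and 2087 to 3916 in WT. Eomes was called in the authors' deposited tables of KO-L (1.61 ± 0.46, adjusted p 0.0300) and KO-S3D (1.99 ± 0.58, adjusted p 0.0260). The mesoderm genes T and Tbx20 were higher in both CSex4 and KO-L, 2 of 6 markers of that list. Rhox5 was the 1 of 3 placental Rhox genes higher in KO-L, in KO-S and in KO-S3D. Cdx1, 1 of 2 posterior Cdx paralogs, was called higher in the same comparisons. Lower calls were Esrrb in CSex4 and Id2, Ovol2, Peg10 and Ascl2 in KO-S, and Id2 and Peg10 were higher in CSex4. The pluripotency genes Nanog (-1.06 ± 0.33, adjusted p 0.0480) and Klf4 (-1.23 ± 0.35, adjusted p 0.0227) fell in CSex4 in the authors' deposited table, where Cdx2 and Gata3 were higher; their part in that was not tested.

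The unequal ESC libraries differed in these genes as well. In the high KO-S3D library Krt8 had 21978 and Rhox6 4357 scaled reads, and in the low one 498 and 39.7. In KO-L3D the high library had 14458 of Krt8 and 2235 of Rhox6 and the other 2098 and 203. Eomes differed less, at 718 and 275 in KO-S3D and 1854 and 973 in KO-L3D. The primitive endoderm gene Gata4 was at 847 and 306 in KO-S3D and at 1770 and 2332 in KO-S, within or above the WT range of 54.4 to 999, and the primitive endoderm list had 0 of 6 genes called in any ESC comparison. Whether these libraries hold other cells than their partners was not tested.

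The genes whose pattern over the 13 comparisons was most like that of Hand1 and Esx1 were sought among 13586 genes, by Pearson correlation of the deposited log2 fold changes, as a description over tables that share libraries and include the 2 that chose Hand1 and Esx1, so the likeness of these to each other is partly set by the choice. For Hand1 they were 1700030C10Rik (r = 0.967), Wdr45 (0.941) and Mfsd2b (0.939), and Esx1 came 8th with 0.918. For Esx1 they were Efhd1 (0.935), Slc4a5 (0.933) and Glrx (0.929), and Hand1 came 8th as well. Among the rest of the 9 genes that were ranked, Gata3 was the nearest to both, with 0.854 to Esx1 and 0.816 to Hand1. Gata2 had 0.809 to Hand1 and Cdx2 0.756 to Esx1, while Tfap2c had 0.321 and Gcm1 -0.404 to Hand1. Elf5 and Plac1 fell below a mean of 10 scaled reads in at least 1 table and were not ranked.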

How the data were processed

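PolyA RNA-seq of 18 ESC and 14 NP samples entered as 13 tables of comparisons, and ChIP-seq as 2 region lists; per-sample values of the 55 ChIP-seq samples are not analysed here. The submitters' processing notes name Bowtie, TopHat, DESeq2 and DiffBind and the builds mm10 and dm3, with no role or version; annotation and counter are not given in the sources used here. Per the file headers, each table gives a signal (the mean of counts divided by size factors), log2 fold changes with SE, p-values and adjusted p-values. The authors' fits were paired, per the names of the deposited files. The region lists give a deposited value between 0 and 1 of unstated kind.

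Library totals, summed from recovered reads, were 23549800 to 47201666, which leaves genes with few reads imprecise. The members and the gene lists were chosen with earlier results of these data known. Calls use the deposited adjusted p with a threshold of 0.05, in place of a refit, because the tables hold no counts per sample. Differences between comparisons were Wald tests with SE added in squares, adjusted by Benjamini-Hochberg over genes with a mean of at least 10. Whole reads per library were recovered from the deposited mean and fold change of each gene (99.9% of ESC and 100% of NP genes), checked on simulated data. They carry no replicate number: within a group they are libraries without order. limma 3.58.1 (voom, R 4.3.3; Python 3.11.15) was run on these reads without a replicate block, also leaving out each library. No value column was left unmapped (0). Named genes were the 9 members and Suz12, in each list the genes called with the largest rise or fall, and the 3 genes most like Hand1 and Esx1; Hes5, Tubb3, Fabp7, Nanog, Pou5f1, Gata4, Prl2c2, Prl3d1, Krt8, Rhox6, Eomes and Esrrb outside that rule, and values of list genes per library, were chosen after their values were seen. Alternatives were a threshold of 0.01, other sets of genes for adjustment, a statistic divided by its robust SD, pseudocounts of 0.5, 1 and 5, the other NP WT pair and other region rules; the limma fits were added after seeing the data.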

Additional observations from a re-analysis of the deposited data

Results flagged for a closer look

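Tfap2c differed between cell types in its log2 fold change of CSex4 vs WT. Its log2 fold change against WT in the authors' deposited tables was -0.40 in ESC and 2.25 in NP, a difference of 2.65 ± 0.46 (SE; Wald test, adjusted p 2.96e-06 over all genes tested), and the ESC and NP tables share no library. In scaled reads, both ESC CSex4 libraries were below and both NP CSex4 libraries above all WT libraries of their cell type. Of the other 7 genes tested for CSex4 in this way none differed between cell types, nor did any of 7 for Deltaex4, at an adjusted p under 0.05. The share of all genes that differed in this way is not given here. The NP value rests on the 2 nearly equal CSex4 libraries, which are not read as replication. With each library left out in turn, limma put it between 1.82 and 2.68.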

How the results depend on the processing

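The fit without a replicate block (limma on recovered reads, chosen after seeing the data) changes the test and drops the pairing of replicates at once, so a change cannot be put down to either. The pairing could not be checked because the recovered libraries carry no replicate number. In that fit without the replicate block the count of the 9 genes was 0 in ESC CSex4, 2 in ESC KO, 0 in KO-L, 1 in KO-S, 1 in NP CSex4 and 2 in NP KO-S vs KO, and the genes differing were 1 for KO-S minus KO-L and 1 for KO-S3D minus KO-S in ESC and 1 for KO-S minus KO-L in NP. Of 50 called fold changes of the 9 genes limma kept 28 calls and lost 22, none with a changed sign. These totals include the 5 calls of ESC KO vs WT and the 6 of KO-L3D vs WT, which chose the genes. Of those, limma kept 2 and 6, and nothing is read from them. Dividing by the robust SD gave 1 gene in ESC CSex4, 2 in ESC KO, 0 in ESC KO-S, 2 in NP KO, 3 in NP WT vs KO, 3 in NP KO-L vs KO, 2 in NP KO-S vs KO and 1 for KO-S3D minus KO-S. In ESC CSex4 a threshold of 0.01 gave 0 and adjustment over all genes 1. The other WT pair gave 8 genes for NP KO.

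Leaving out each library in limma gave 0 to 1 in ESC CSex4, 0 to 0 in Deltaex4, 0 to 2 in KO, 0 to 0 in KO-L, 2 to 6 in KO-L3D, 0 to 1 in KO-S and 0 to 7 in KO-S3D, and in NP 0 to 1 in CSex4, 0 to 1 in Deltaex4, 3 to 5 in KO vs WT, 0 to 3 in KO-L vs KO, 0 to 3 in KO-S vs KO and 5 to 7 in WT vs KO. Restricting lists to genes with a mean of at least 10 turned the sign of 5 medians: labyrinth genes in ESC KO-L (0.31) and KO-L3D (0.20), and spongiotrophoblast, giant cell and hormone genes in ESC KO-S3D (-0.96), NP KO vs WT (-0.72) and NP KO-L vs KO (3.11). Depth limits Elf5, Plac1 and Gcm1 in ESC, where several libraries held under 10 reads.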
